A study of Mus musculus with 2 samples.

Results

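Ribosomal protein genes encode the proteins that, with ribosomal RNA, build the small and large subunits of the cytosolic ribosome. Their mRNAs are among the most abundant of a cell, and most begin with a run of pyrimidines at the 5′ end, the terminal oligopyrimidine (TOP) motif, through which the mTOR pathway and Larp1 control their translation and stability. The acidic proteins Rplp0, Rplp1 and Rplp2 form the stalk of the large subunit, which recruits elongation factors. Sleep loss is known to affect protein synthesis in the brain.

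The genes were chosen by symbol. A gene was a member if it was Rpsa, or Rpl or Rps followed by digits with an optional a, l, x or y, or Rplp followed by a digit, and pseudogenes and S6 kinase genes were left out. This gave 80 of the 31054 genes in the matrices: 46 of the large subunit, 3 of the stalk and 31 of the small subunit. At least 1 UMI (a counted mRNA molecule) was found for 79 of them in each library. Rpl10l, a paralog known from testis, had 0 UMIs in both libraries. Rpl3l, a paralog known from muscle, had 35 UMIs in the described SD+RS cells and 39 in the SD cells, and the testis-type paralog Rpl39l had 21 and 44. The other 77 each had at least 9860 UMIs in the SD+RS library and 10343 in the SD library. Genes such as Rps3a1, Fau, Rack1, Rpl36al, Rpl22l1 and Rpl7l1 belong to or near the cytosolic ribosome but fall outside the symbol rule, and they are given separately.

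The study dissociated the preoptic area, a hypothalamic region with sleep-promoting neurons, from C57BL/6J mice aged 9 to 10 weeks, by Act-seq, which blocks transcription during dissociation, followed by 10x Genomics single-cell RNA sequencing. The SD+RS library came from mice with 6 h of sleep deprivation and then 2 h of recovery sleep, and the SD library from mice with 6 h of sleep deprivation alone. Both libraries pooled males and females from an unstated number of animals, and undisturbed mice were not analysed here. The design asks what differs when deprived mice have slept, and with 1 library per group there is no replicate check: no p-value was computed, and every interval below is a 95% interval of counting error only.

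Called barcodes numbered 8106 in SD+RS, with 123500649 UMIs, and 10262 in SD, with 132191585 UMIs. After filtering, 7461 SD+RS cells and 9322 SD cells were described, with medians of 15382 and 7331 UMIs. Neurons made up 56.8% of SD+RS cells and 39.4% of SD cells, so values are given by class. The libraries also differed in sex: among cells with Xist or Y-linked UMIs but not both, 78.9% of SD+RS cells and 49.6% of SD cells had Xist. The 2 libraries shared 23 cell barcodes, 19 of them among described cells. Cell classes were rebuilt from clusters that left out all ribosomal protein genes. In each of the 7 described classes every marker of the class had UMIs in both libraries. The same marker lists named the classes, so this is no separate check of their identity.

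For 4 members with low ratios in SD+RS cells, described below, the sequence around the RefSeq start site (GRCm38.p6, from 40 bases before the start to 15 bases from it onward, 5′ to 3′) is shown, with the longest run of C and T near the start in capitals. These are the windows chr2:39005117-39005171 (minus strand) for Rpl35, chrX:37085208-37085262 (minus strand) for Rpl39, chr2:180257339-180257393 (plus strand) for Rps21 and chr3:90213634-90213688 (minus strand) for Rps27.
Rpl35: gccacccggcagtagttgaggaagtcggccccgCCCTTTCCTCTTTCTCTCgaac
Rpl39: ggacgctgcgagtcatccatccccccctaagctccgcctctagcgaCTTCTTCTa
Rps21: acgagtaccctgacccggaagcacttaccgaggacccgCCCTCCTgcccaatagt
Rps27: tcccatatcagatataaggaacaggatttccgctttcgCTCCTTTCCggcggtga
The run was 18 bases long in Rpl35, 8 in Rpl39, 7 in Rps21 and 9 in Rps27. A RefSeq start window was at hand for 60 of the 80 members. An unbroken run of at least 8 C or T bases on the sense strand, reaching within 10 bases of the start, occurred in 26 of these 60 (43.3%) and in 3743 of all 27025 genes with such a window (13.9%). Annotated starts can lie some bases off the true one, and the match is a description of sequence only.

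The share of UMIs that came from ribosomal protein genes differed more between cell classes than between the libraries. Microglia had the highest share, 12.95% in SD+RS cells and 12.65% in SD cells. Endothelial cells followed with 9.03% and 9.37%, then neurons with 7.74% and 7.76% and mural cells with 7.48% and 7.04%. Oligodendrocytes had 4.86% in SD+RS cells and 5.05% in SD cells, and oligodendrocyte precursors 4.03% and 4.24%. Astrocytes had the lowest share, 1.96% in SD+RS cells and 2.39% in SD cells. The order of the 7 classes was the same in both libraries. Classes next to each other in that order had ranges over cells that overlapped in both libraries, except oligodendrocyte precursors and astrocytes. Neurons and mural cells are given as an example. The 10th to 90th percentile of single cells was 5.71 to 9.87% in SD+RS neurons and 5.74 to 9.88% in SD neurons. In mural cells it was 4.42 to 9.98% in SD+RS and 4.59 to 9.44% in SD.

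**Figure D1:**
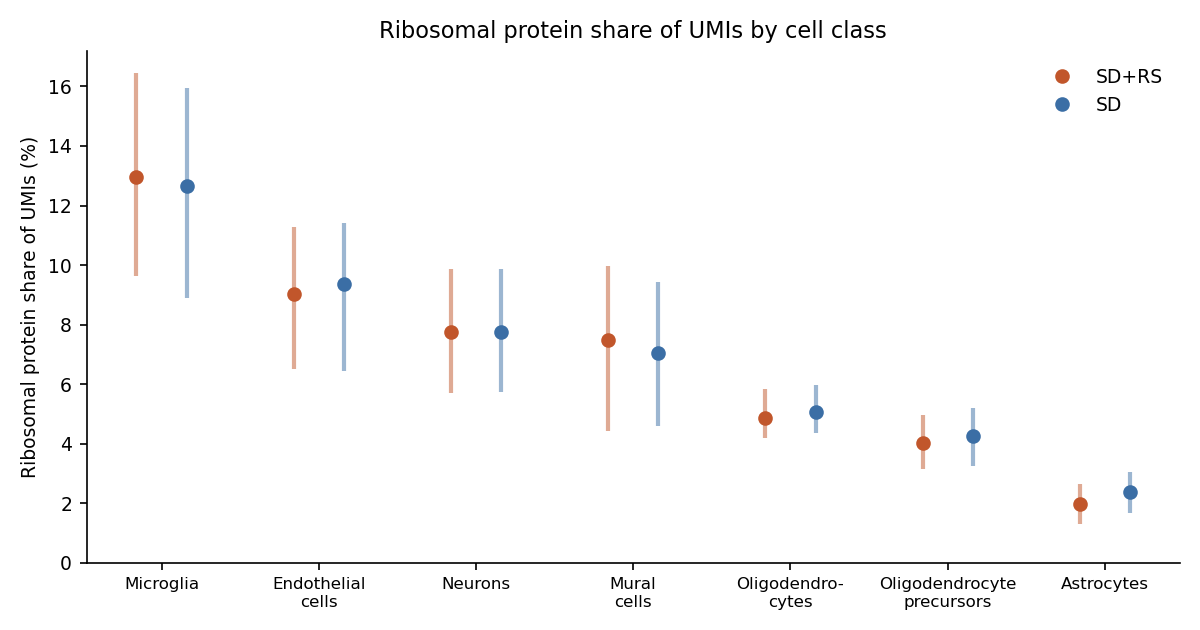
Share of all UMIs of a cell class that came from the 80 ribosomal protein genes (%), with SD+RS to the left of SD. Points are sums over cells and vertical lines span the 10th to 90th percentile of single cells; astrocytes lie at 1.96% in SD+RS and 2.39% in SD cells, and the neuron points nearly coincide.

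Astrocytes had a lower ribosomal protein share after recovery sleep, and none of the other 6 described classes differed between the libraries by 1.2-fold. The astrocyte share was 1.96% (1.95 to 1.98%) in SD+RS cells and 2.39% (2.38 to 2.40%) in SD cells, a log2 ratio of −0.28 (−0.30 to −0.27). Astrocytes held few such molecules, with a mean of 63.9 ribosomal protein UMIs per cell in SD+RS and 86.3 in SD. Their median depths were 3144 and 3460 UMIs. The share of the median cell was 1.82% in SD+RS and 2.26% in SD.

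The lower share was spread over the members. All 77 members with at least 50 UMIs in both libraries had a log2 ratio below 0 in astrocytes, and the interval lay below 0 for 74 of them. At least 1.2-fold lower in SD+RS were 48 of the 77, against 16.7% of all 8614 genes measured the same way in astrocytes. None of the 77 was 1.2-fold higher, against 15.2% of all genes. The members' median log2 ratio was −0.29, and that of all genes −0.02. Rpl35, a protein of the large subunit near the exit tunnel, was lowest, with 120.2 CPM (the gene's UMIs per 1000000 UMIs of the class) in SD+RS and 185.4 CPM in SD and a log2 ratio of −0.63 (−0.78 to −0.48). Rpl36 of the large subunit had 248.9 CPM in SD+RS and 360.1 CPM in SD (log2 −0.53), and Rps25 of the small subunit, known for its part in internal initiation, 133.8 and 184.6 CPM (log2 −0.46). Nearest to 0 was Rps3 of the small subunit with 321.2 CPM in SD+RS and 331.8 CPM in SD (log2 −0.05, −0.14 to 0.05). When members were scaled to each other instead, as a share of ribosomal protein UMIs, 1 of the 77 was 1.2-fold lower in SD+RS astrocytes. On that scale Rpl35 (log2 −0.34), Rpl36 (−0.25) and Rps25 (−0.18) lay below 0, while Rps3 (0.24) lay above it.

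The astrocytes of the libraries fell mostly into different clusters, which had been formed without ribosomal protein genes. A cluster led by F3, Gjb6 and Etnppl held 48 SD+RS cells and 1786 SD cells, with shares of 1.89% and 2.31%. A cluster led by Gm3764, Itih3 and Agt held 1118 SD+RS cells and 68 SD cells, with 1.94% and 2.38%. The other astrocyte clusters, one of shallow cells and one led by Gfap, had 1.47% in SD+RS and 2.05% in SD, and 3.20% and 3.57%. The share was thus lower in SD+RS cells in all 4 astrocyte clusters, and the Gfap cluster had the highest share in both libraries.

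Values that moved with this result are given next. Neurons have a higher ribosomal protein share than astrocytes, and the summed CPM of the 8 neuron markers in astrocytes was 537.2 in SD+RS and 582.3 in SD, against 12949 and 13134 in neurons. All 8 neuron markers were detected in astrocytes of both libraries. In astrocytes with no UMI of any neuron marker, 436 SD+RS cells and 314 SD cells, the share was 1.89% and 2.31%. The part of neuronal RNA in the result was not tested. The nuclear RNA Malat1 made up 9.03% of UMIs in SD+RS astrocytes and 7.88% in SD astrocytes, and its part in the result was not tested. Mitochondrially encoded genes made up 4.80% in SD+RS and 5.81% in SD. With their UMIs left out of the total the log2 ratio of the ribosomal protein share was −0.30, and under a stricter cell filter (1000 genes, 10% mitochondrial UMIs) −0.27. Among cells with Xist only, astrocytes had 1.99% in SD+RS and 2.39% in SD (log2 −0.26), and among cells with Y-linked UMIs only 1.93% and 2.36% (log2 −0.29). In astrocytes with Xist only, 0 of 77 members were 1.2-fold higher and 42 were lower, against 15.9% and 17.1% of all genes in the same cells. Short genes outside the members also tended to lie below 0 in astrocytes: the 436 other genes with under 400 coding bases had a median log2 ratio of −0.17 and 344 of them lay below 0, against −0.0063 for the 7944 longer ones. Among members, the 25 with under 400 coding bases had a median of −0.35 and the 52 longer ones −0.27.

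In neurons the share was nearly equal in both libraries. It was 7.744% (7.738 to 7.749%) in SD+RS and 7.755% (7.749 to 7.761%) in SD, a log2 ratio of −0.0021 (−0.0036 to −0.0006). The share of the median cell was 7.78% in SD+RS and 7.74% in SD, at medians of 21213 and 21964 UMIs. Of 77 members, 0 were 1.2-fold higher in SD+RS neurons, against 6.19% of all 13749 genes measured, and 1 was 1.2-fold lower, against 8.24%. The members' log2 ratios lay between −0.29 and 0.10, with a median of 0.01. In neurons with Xist only, 0 of 77 were higher and 1 lower, against 4.84% and 7.13%. Rpl35 was again the lowest, with 519.9 CPM (515.4 to 524.5) in SD+RS and 635.4 CPM (630.1 to 640.7) in SD. Rpl39, a very small protein of the large subunit at the exit tunnel, had 883.3 CPM in SD+RS and 1004 CPM in SD (log2 −0.18), and Rps21 of the small subunit 1316 and 1457 CPM (log2 −0.15). At the other end stood Rpl3, which lies near the peptidyl transferase centre, with 2354 CPM in SD+RS and 2203 CPM in SD (log2 0.10, 0.09 to 0.10), the X-linked Rps4x with 1096 and 1030 CPM (log2 0.09), and Rpl7 with 572.2 and 539.2 CPM (log2 0.09). Rps6, the target of S6 kinase that is often used as a sign of mTOR activity in its phosphorylated form, had 669.7 CPM in SD+RS and 647.0 CPM in SD (log2 0.05). These are mRNA counts and do not show phosphorylation.

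**Figure D2:**
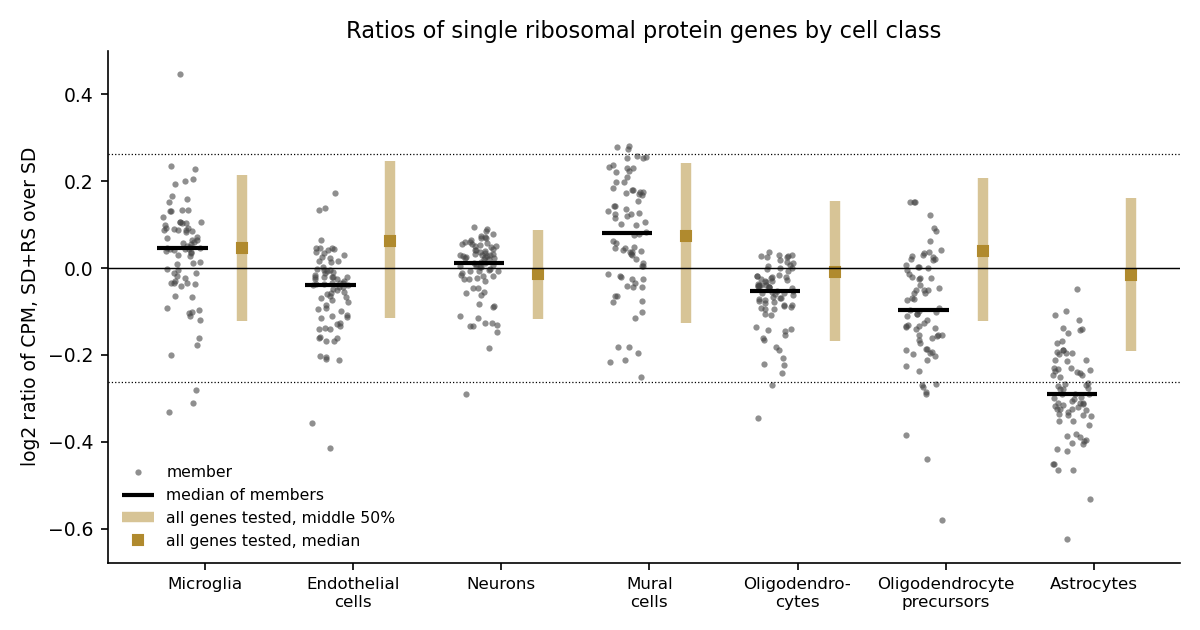
Log2 ratio of CPM, SD+RS over SD, for each ribosomal protein gene with at least 50 UMIs in both libraries (76 or 77 per class), with the median as a bar; the squares and thick bars give the median and middle 50% of all genes measured in that class. Dotted lines mark a fold of 1.2; all astrocyte members lie below 0, and neuron members lie within −0.29 and 0.10.

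Within the neurons, members with short coding sequences tended to be lower in SD+RS. Across the 77 members, Spearman's correlation between the log2 ratio and coding length (the longest in GENCODE vM21) was 0.74, a description over genes of one pair of libraries that share depth and normalisation. The 25 members with under 400 coding bases had a median of −0.06 and 20 lay below 0, and the 52 longer members had a median of 0.03 and 11 lay below 0. Rpl39 has 153 coding bases, Rps21 249, Rps27 252 and Rpl35 369, while Rps4x has 789, Rpl7 838 and Rpl3 1209. Rpl41, which encodes the smallest ribosomal protein, stood outside the trend at 1640 CPM in SD+RS and 1637 CPM in SD (log2 0.0028). Over the 12819 other genes with a coding length in neurons, the correlation was −0.13, and those under 400 bases had a median of −0.01 against −0.02 for the longer ones. The correlation over members was above 0 in all 31 neuron clusters, between 0.35 and 0.79. In the other classes it was 0.53 in microglia, 0.43 in astrocytes, 0.41 in oligodendrocytes, 0.35 in mural cells and 0.27 in both endothelial cells and oligodendrocyte precursors. Over the other genes of those classes it was 0.03 in microglia, 0.17 in astrocytes, −0.10 in oligodendrocytes, 0.0025 in mural cells, −0.13 in endothelial cells and 0.05 in precursors.

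**Figure D3:**
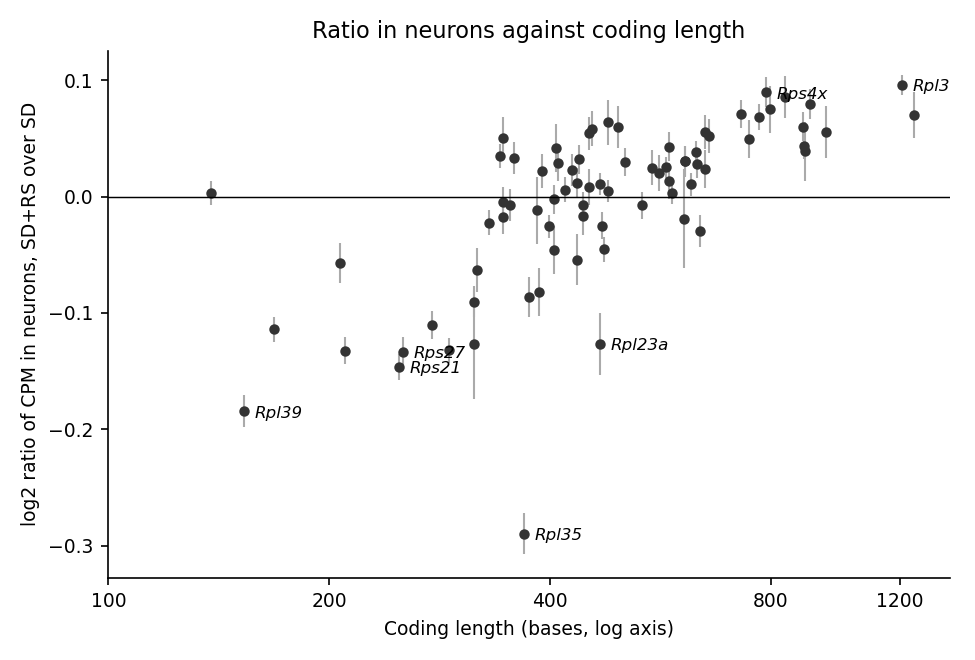
Log2 ratio of CPM in neurons, SD+RS over SD, against coding length in bases on a log axis, for 77 ribosomal protein genes; vertical lines are 95% intervals of counting error. The shortest members lie mostly below 0 and the longest above it, with Rpl35 (369 bases) lowest at −0.29 and Rpl3 (1209 bases) highest at 0.10.

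Rpl35 stood at or next to the bottom in 6 of the 7 classes. Its log2 ratio was −0.31 in microglia, −0.36 in endothelial cells, −0.29 in neurons, −0.34 in oligodendrocytes, −0.58 in oligodendrocyte precursors and −0.63 in astrocytes, with every one of these intervals below 0. In mural cells it had 537.8 CPM in SD+RS and 567.9 CPM in SD, with an interval of −0.31 to 0.15. Rps27, a zinc finger protein of the small subunit, was lower in SD+RS in all 7 classes, with log2 ratios between −0.38 in oligodendrocyte precursors and −0.13 in neurons and every interval below 0. In neurons it had 1062 CPM in SD+RS and 1165 CPM in SD. Its paralog Rps27l, a p53 target, had 77.5 CPM in SD+RS neurons and 84.6 CPM in SD neurons (log2 −0.13). Rpl39 was lower in SD+RS in every class except mural cells, where its interval was −0.12 to 0.19. Reads of some members may not be unique: of the 75-base windows in the last 400 bases of the longest coding transcript, 83.7% of those of Rpl35 and 71.5% of those of Rps27 also occur in transcripts of other genes, against 12.6% for Rpl39 and 6.56% for Rps21. Such shared windows were found for 54 of the 80 members. In the annotation, 20 of the 80 members overlap another gene of the matrices, among them Rpl35 (Arpc5l and Wdr38) and Rpl13a (Gm45713).

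The ribosomal protein shares of neuron types were similar in both libraries. They were taken over 31 neuron clusters with at least 50 cells in each library. Shares ran between 4.91 and 9.27% in SD+RS and between 5.05 and 9.33% in SD. Pearson's r between the libraries over the clusters was 0.96. The lowest ranks were the same in both libraries, while others moved. A cluster led by Vip, Ntng1 and Penk had rank 10 in SD+RS and rank 20 in SD, counted from the highest share. The cluster led by Pou3f1, Gm45768 and Shh had the lowest share, 4.91% (4.87 to 4.95%) in SD+RS and 5.05% (5.01 to 5.09%) in SD. A cluster led by the transcription factors Satb1, Gbx1 and Bcl11b followed with 5.71% and 5.63%, and a cluster led by Pou3f1, Bcl11b and the calcium-binding protein gene Pvalb had 6.20% in SD+RS and 6.47% in SD. At the top in SD+RS were a cluster led by Calcr, Brs3 and Prok2 with 9.27% in SD+RS and 8.64% in SD, one led by Sox14, Fam159b and Calcr with 9.04% and 9.33%, and one led by Trh, Ghrh and Cbln1 with 8.84% and 8.87%. A cluster led by Nptx2, Gldn and Slc17a6 had 8.76% in SD+RS and 8.92% in SD. Across clusters the share had a Pearson's r with log median depth of 0.11 in SD+RS and 0.21 in SD.

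None of the 31 described neuron clusters differed between the libraries by 1.1-fold. Their log2 ratios lay between −0.10 and 0.10, with 16 clusters above 0 and 15 below. The highest ratios were 0.10 in the Calcr, Brs3 and Prok2 cluster, 0.08 in a cluster led by C1ql2, Eomes and Nmb with 7.87% in SD+RS and 7.45% in SD, and 0.07 in a cluster led by Vip, Ntng1 and Penk with 8.03% and 7.65%. The lowest were −0.10 in a cluster led by Lhx8, Spon1 and Cox6a2, with 8.30% in SD+RS and 8.88% in SD, −0.07 in a cluster led by Tac2, Crh and Lamp5 with 8.03% and 8.46%, and −0.06 in a cluster led by Six3, Pmaip1 and Megf11 with 7.51% and 7.85%. A cluster led by Tac2, Amigo2 and Cbln2 had 8.10% in SD+RS and 8.24% in SD.

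**Figure D4:**
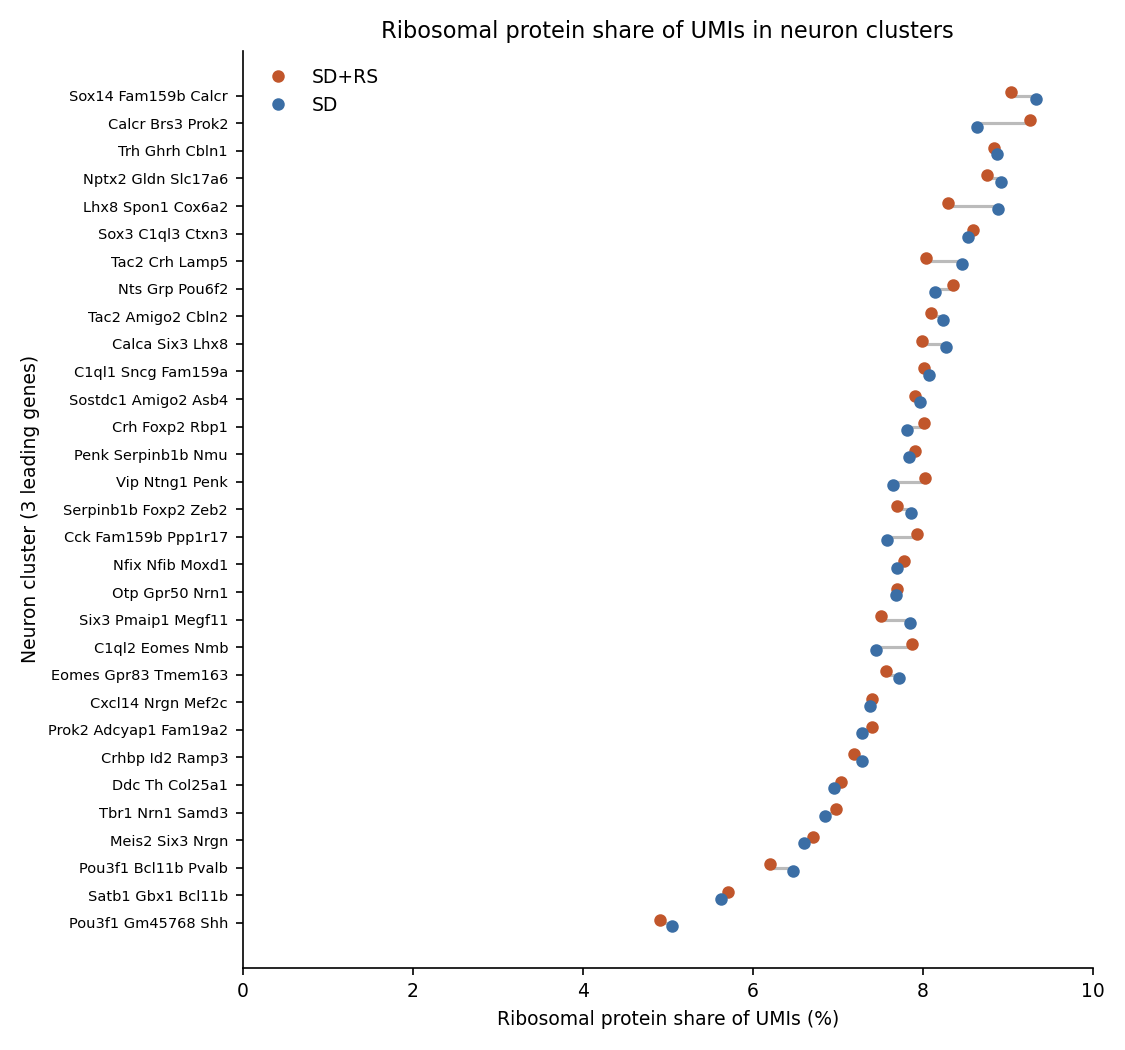
Ribosomal protein share of UMIs (%) in 31 neuron clusters named by their leading genes and ordered by the mean of both libraries, SD+RS drawn just above SD in each row. Shares run between 4.91 and 9.27% in SD+RS and between 5.05 and 9.33% in SD, and none of these 31 differs between the libraries by 1.1-fold; clusters with under 50 cells in a library are not shown.

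Marker lists of the study's own clusters also hold ribosomal protein genes. In the authors' deposited table for both libraries, 184 entries belong to members, in 16 of 41 clusters. In the authors' deposited table a cluster led by 4932435O22Rik, Gm45768 and Tacr3 has 53 members, all with a negative fold change and an adjusted p under 0.05, and one led by Bcl11b, Sox6 and Gbx1 has 49, likewise all negative and under 0.05. A cluster led by Six6, Epcam and Otx1 has 43 members in the authors' deposited table, 42 of them positive, and an adjusted p under 0.05 for 15 of the 43. The rebuilt cluster led by Gnrh1, Cxcl14 and Six6, which makes gonadotropin-releasing hormone, had a share of 9.65% over 10 SD+RS cells and 11.55% over 7 SD cells (log2 −0.26), too few to be described further. Another cluster under the minimum of 50 cells, led by Oxt, Avp and Otp, had 6.22% over 46 SD+RS cells and 6.93% over 49 SD cells (log2 −0.16). Its median depth differed between the libraries, at 63337.5 UMIs in SD+RS and 35809 in SD. As a mean over cells its share was 6.84% in SD+RS and 7.60% in SD.

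The other non-neuronal classes had small differences between the libraries. Microglia had 12.95% (12.88 to 13.02%) in SD+RS and 12.65% (12.59 to 12.71%) in SD, a log2 ratio of 0.03 (0.02 to 0.05). Summed neuron marker CPM in microglia was 192.6 in SD+RS and 569.2 in SD. In microglia with no UMI of any neuron marker, 59 SD+RS cells and 45 SD cells, the share was 13.10% and 13.02%, a log2 ratio of 0.0083. The direction depended on which cells entered: microglia with Xist only, 116 SD+RS cells and 107 SD cells, had 12.48% and 12.87% (log2 −0.04, −0.06 to −0.03), and those with Y-linked UMIs only, 21 SD+RS cells and 62 SD cells, had 13.58% and 12.80% (log2 0.09). Under a stricter cell filter (1000 genes, 10% mitochondrial UMIs) the ratio was 0.0056. Of 77 members, 1 was 1.2-fold higher in SD+RS microglia, against 19.8% of all genes, and 3 were 1.2-fold lower, against 13.2%. The higher one was Rpl13a, a target of the interferon-driven GAIT pathway in human cells, at 103.0 CPM in SD+RS and 75.6 CPM in SD with an interval of 0.01 to 0.88, followed below the threshold by Rpl7 (log2 0.23) and Rpl7a (log2 0.23). The lower ones were Rps15 with 278.8 CPM in SD+RS and 350.9 CPM in SD (log2 −0.33), Rpl35, and Rps27l with an interval of −0.64 to 0.08. In microglia with Xist only, 0 of 76 members were higher and 6 lower, against 18.3% and 12.2% of all genes in the same cells.

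Endothelial cells had a log2 ratio of −0.05 (−0.06 to −0.04). It was 0.0072 with called doublets kept, −0.0060 as a mean over cells, 0.0017 in cells with Xist only (9.13% in SD+RS and 9.12% in SD) and −0.11 in Y-only cells. None of 77 members was 1.2-fold higher in SD+RS, against 23% of all genes, and 2 were 1.2-fold lower, against 12.7%: Rpl13a with 63.6 CPM in SD+RS and 84.7 CPM in SD, and Rpl35. Rps21 was next, with 1171 CPM in SD+RS and 1356 CPM in SD. Among the highest ratios there were those of Rpl4 (0.14) and Rps27l (0.13), and both intervals included 0. Among cells with Xist only, 1 of 77 members was higher and 2 were lower, against 19.2% and 13.1% of all genes.

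Mural cells, the pericytes and smooth muscle cells of vessels, had a log2 ratio of 0.09 (0.07 to 0.11). In SD+RS, 3 members were higher by 1.2-fold, against 22.9% of all genes. Among them were Rpl11, known for binding Mdm2, with 849.8 CPM in SD+RS and 699.0 CPM in SD, and Rps2 with 1547 and 1280 CPM. None of 76 was 1.2-fold lower, against 13.1%, and the lowest ratios were those of Rps27 (−0.25), Rps25 (−0.22) and Rpl23a (−0.21). The smooth muscle cluster led by Acta2 held 78 SD+RS and 98 SD cells, with shares of 8.30% and 7.80%. The cluster led by Vtn and Kcnj8 held 50 SD+RS and 124 SD cells, with 5.15% and 6.01%. The 2 mural clusters thus went opposite ways, and their mix differed between the libraries. The part of this mix in the mural ratio and in the member calls was not tested. Summed neuron marker CPM in mural cells was 529.2 in SD+RS and 1300 in SD. Astrocyte markers summed to more, 4763 CPM in SD+RS and 5130 CPM in SD, and oligodendrocyte markers to 1743 and 1963 CPM. The part of such RNA in the mural share was not tested. In mural cells with no UMI of any neuron marker, 32 SD+RS cells and 35 SD cells, the share was 7.98% and 7.55%, a log2 ratio of 0.079. Mural cells with Xist only had a log2 ratio of 0.15 and those with Y-linked UMIs only, 11 SD+RS cells and 53 SD cells, −0.18. The count of members also moved: in mural cells with Xist only, 17 of 76 were higher and 0 lower, against 21.5% and 13.6% of all genes in the same cells, and as a share of ribosomal protein UMIs 0 were higher and 6 lower.

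Oligodendrocytes had a log2 ratio of −0.06 (−0.06 to −0.05), with 0 members 1.2-fold higher in SD+RS, against 14.5% of all genes, and 2 of 77 lower, against 16%. The lower ones were Rpl35, with 253.0 CPM in SD+RS and 321.3 CPM in SD, and Rpl13a, with 35.2 and 42.5 CPM. Rpl23a was the next lowest (log2 −0.24), with an interval below 0. Rpl12 (0.04), Rps9 (0.03) and Rpl7 (0.03) were the highest, and these 3 intervals included 0. Here too the libraries fell into different clusters: one led by Ptgds, Opalin and Mal held 678 SD+RS and 101 SD cells with 4.86% and 4.64%, and one led by Ptgds, Il33 and Mbp held 46 SD+RS and 1093 SD cells with 4.90% and 5.09%, so that the direction differed between them. In oligodendrocytes with Xist only, 0 of 77 members were higher and 4 lower, against 14.3% and 15.2% of all genes.

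Oligodendrocyte precursors had a log2 ratio of −0.08 (−0.10 to −0.05). None of 76 members was 1.2-fold higher in SD+RS, against 19.4% of all genes, and 8 were 1.2-fold lower, against 11.2%. The lowest were Rpl35 with 201.4 CPM in SD+RS and 300.9 CPM in SD, Rps24 with 580.0 and 786.1 CPM (log2 −0.44) and Rps27 with 373.1 and 486.9 CPM (log2 −0.38). The others were Rps4x (−0.29), Rpl37a (−0.28), Rpl37 (−0.27), Rps10 (−0.27) and Rpl41 (−0.27). Rps24 is known for a short last exon whose use differs between tissues, which UMI counts per gene do not show. Rpl5, which travels with the 5S ribosomal RNA, Rpl36a and Rpl28 were highest at 0.15 each, with intervals that included 0. The interval lay above 0 for 1 member, Rpl13, with 5313 CPM in SD+RS and 4879 CPM in SD. It made up 13.2% of ribosomal protein UMIs in SD+RS precursors and 11.5% in SD precursors. In precursors with Xist only, where the log2 ratio of the share was −0.15, 22 of 76 members were lower and 1 was higher, against 14.3% and 14.1% of all genes in the same cells. As a share of ribosomal protein UMIs, 3 were lower.

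At a stricter fold of 1.5, 0 members were called in 6 of the classes, and in astrocytes 1 was lower (Rpl35), against 3.1% of all genes lower and 2.95% higher. The shares of all genes past 1.5-fold, higher and then lower in SD+RS, were 3.09% and 2.07% in microglia, 4.3% and 2.8% in endothelial cells, and 0.706% and 1.34% in neurons. They were 4.97% and 3.27% in mural cells, 2.93% and 3.29% in oligodendrocytes, and 2.88% and 1.26% in oligodendrocyte precursors. With at least 500 UMIs in both libraries and a fold of 1.2, microglia had 0 members higher and 1 lower (all genes 10.3% and 7.51%), endothelial cells 0 and 1 (11.7% and 12.3%), neurons 0 and 1 (2.39% and 4.52%), and oligodendrocytes 0 and 1 (9.99% and 7.64%). By the same rule, 2 of 30 members were higher and 0 lower in mural cells (23.5% and 3.06%), 0 of 68 higher and 39 lower in astrocytes (13.3% and 12.6%), and 0 of only 9 in either direction in precursors (10.9% each).

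The makeup of the ribosomal protein mRNA pool differed between classes and was close to constant between the libraries. Over the 76 members with at least 50 UMIs in every class and library, Pearson's r of the log2 share of ribosomal protein UMIs between SD+RS and SD was between 0.984 and 0.997 in each class, whereas r with neurons, both in the SD library, was between 0.76 in oligodendrocyte precursors and 0.86 in astrocytes. For each member the range of that share over the 7 classes was taken on the log2 scale, the smaller of the 2 libraries. Its median was 0.70, 20 members exceeded 1, and 16 were under 0.5. The class with the highest share of a member was the same in both libraries for 64 of the 76.

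Rpl13, a large-subunit protein, had the widest range, with oligodendrocyte precursors far above the other classes. It made up 13.2% of ribosomal protein UMIs there in SD+RS and 11.5% in SD, while the other 6 classes lay between 2.38 and 3.06% in SD+RS and between 2.32 and 3.12% in SD. Its level in precursors was 5313 CPM (5148 to 5482) in SD+RS and 4879 CPM (4754 to 5005) in SD, against 1846 CPM and 1798 CPM in neurons. The high share was common to the cells: the 10th percentile of single precursors was 8.15% in SD+RS and 6.71% in SD, above the 90th percentile of neurons at 2.99% and 2.92%. In the unnamed cluster led by 9630013A20Rik, Gpr17 and Sirt2, Rpl13 was at 2.23% in SD+RS and 2.49% in SD, and in oligodendrocytes at 2.79% and 2.83%. The leading genes of that unnamed cluster included markers of committed cells (Gpr17, Enpp6) and of oligodendrocytes (Mag). Rpl13 lies at chr8:123102350-123105244 (mm10, plus strand), where 87.1% of the windows in its last 400 bases also occur in 8 pseudogenes, so reads from such a copy could not be told apart. The long gene model Gm20388 that spans it had 0 UMIs in precursors, neurons and astrocytes of both libraries.

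The stalk proteins differed between classes. Rplp1 was highest in microglia, at 4.23% of ribosomal protein UMIs in SD+RS and 4.03% in SD and 5483 CPM and 5092 CPM, against 1687 CPM and 1647 CPM in neurons. Rplp0, the stalk base and a common reference gene in PCR work, had 0.45% in SD+RS and 0.44% in SD in neurons, and between 0.96 and 1.66% in the other classes over both libraries. Rplp2 lay between 0.79 and 1.22%. As a sum, the stalk made up 6.69% of ribosomal protein UMIs in SD+RS microglia and 6.65% in SD microglia, against 3.40 to 4.31% in the other classes.

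Other members also marked classes. Rps27l was highest in oligodendrocyte precursors at 0.43% in SD+RS and 0.45% in SD, against 0.10% and 0.11% in neurons. Rpl22, known from lymphocyte development, was lowest in neurons at 0.27% in SD+RS and 0.28% in SD, against 0.57 to 0.87% elsewhere. Rpl23a was highest in astrocytes at 0.47% and 0.53% and lowest in microglia at 0.16% and 0.17%. Rpsa, which is also known as a laminin receptor, was highest in oligodendrocytes at 2.79% in SD+RS and 2.72% in SD, and Rpl3 in neurons at 3.04% and 2.84%. The most even members were Rpl34, which stayed between 1.15 and 1.42% over all classes and both libraries, Rpl23, Rps15a and Rpl8. The X-linked Rpl10, linked to autism in human families, lay between 0.92 and 1.41%, and Rpl36a between 0.43 and 0.64%.

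**Figure D5:**
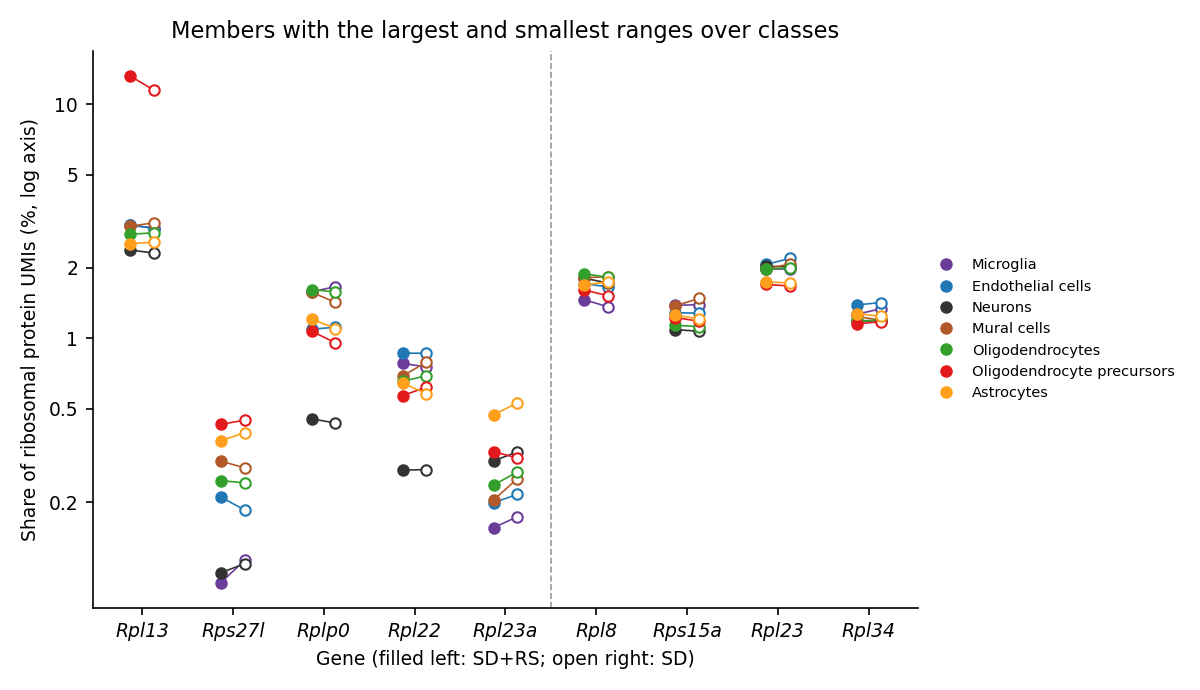
Share of ribosomal protein UMIs (%, log axis) of the 5 members with the largest and the 4 with the smallest range over 7 cell classes; colours are classes, filled points on the left SD+RS and open points on the right SD. Rpl13 in oligodendrocyte precursors stands apart at 13.2% in SD+RS and 11.5% in SD, and the members right of the dashed line lie close together in all classes.

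Among neuron types the makeup varied less. Rpsa had the widest range, between 0.86 and 1.72% of ribosomal protein UMIs in SD+RS and between 0.82 and 1.70% in SD. It was lowest in the Tac2, Amigo2 and Cbln2 cluster and highest in the Sox14, Fam159b and Calcr cluster in both libraries. The Tac2, Amigo2 and Cbln2 cluster also had the highest shares of Rpl22, at 0.39% in SD+RS and 0.37% in SD, and of Rpl10, at 1.35% and 1.37%, and the lowest shares of Rplp1, at 1.71% and 1.60%.

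Outside the symbol rule, genes with a log2 ratio below 0 in astrocytes included Rps3a1 (−0.26), Fau (−0.28) and Rack1 (−0.29), and Rpl7l1 had 49.8 CPM in SD+RS and 47.0 CPM in SD. In neurons Rpl36al and Rack1 had log2 ratios of 0.08 and 0.09, and Rpl22l1, a paralog of Rpl22, had 1657 CPM in SD+RS and 1733 CPM in SD (log2 −0.06).

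The rest of the translation machinery was read beside the members. In neurons the medians of the lists were 0.05 for 9 genes listed as elongation factors and 0.05 for 31 initiation factors. They were 0.04 for 74 mitochondrial ribosomal proteins, 0.02 for 37 ribosome biogenesis genes and 0.02 for 16 regulators of translation. The median of all genes was −0.01. At least 1.2-fold higher in SD+RS neurons were 0, 0, 1, 1 and 2 genes of these lists in that order, and 0, 2, 1, 0 and 1 were lower, against 6.19% higher and 8.24% lower of all genes. Among elongation factors Eef1a1 had 2742 CPM in SD+RS and 2561 CPM in SD, Eif5a 630.2 and 589.8 CPM, and Eef2 319.3 and 345.9 CPM. The list also held Eef1e1, whose product is not itself an elongation factor, with 165.0 CPM in SD+RS and 167.0 CPM in SD. The initiation factors at the ends were Eif3g (log2 0.17) and Eif3l (0.16), subunits of eIF3, and Eif3j1 (−0.31) and Eif1b, with 458.8 CPM in SD+RS and 563.9 CPM in SD (−0.30). Eif4ebp2, the main neuronal repressor of eIF4E, was the lowest of the regulators with 13.7 CPM in SD+RS and 19.7 CPM in SD (log2 −0.52), followed by Rps6kb1, an S6 kinase (log2 −0.17), while Eif4ebp1 (0.61) and Eif2ak2 (0.56) were highest at about 1 CPM. Biogenesis genes ran between Ubtf (−0.17) and Ltv1 (−0.12) at the low end and Rrp9 (0.24) and Nhp2 (0.28) at the high end, and mitochondrial ribosomal proteins between Mrps6 (−0.28) and Mrpl36 (−0.23) and Mrps31 (0.20) and Mrpl2 (0.27). Of 13 listed small nucleolar RNA host genes 4 were measured, with a median of −0.11: Snhg20 (−0.25), Snhg6 (−0.15), Snhg11 (−0.08) and Snhg12 (−0.06).

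In SD+RS astrocytes the elongation, initiation and mitochondrial ribosomal lists and the small nucleolar RNA host genes had medians below that of all genes. The regulator and biogenesis medians lay near it. The median log2 ratio was −0.15 for elongation factors, −0.16 for initiation factors and −0.19 for 74 mitochondrial ribosomal proteins, of which 19 were 1.2-fold lower and 1 was higher, against 16.7% and 15.2% of all genes. Regulators had a median of −0.04 and biogenesis genes −0.0085, beside −0.02 for all genes. The 4 measured small nucleolar RNA host genes had a median of −0.28. Of these 4, 2 were 1.2-fold lower and 0 higher, against 16.7% and 15.2% of all genes. The summed CPM of elongation factors was 1836 in SD+RS astrocytes and 2118 in SD astrocytes, and that of mitochondrial ribosomal proteins 4594 and 5378.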

How the data were processed

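The 10x Genomics libraries used were SD+RS and SD, 1 per group. The authors deposited matrices of raw UMI counts per gene and cell, made with Cell Ranger 3.0.2, per the file headers; mm10 and Seurat 4.0.4 are named in the submitters' processing notes. The authors' deposited tables of cluster markers hold p-values and average fold changes read as natural log from the column name; only their signs and the adjusted p-values were used.

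Cells were kept from 500 genes up, if mitochondrial genes took less than 20% of UMIs, and simulated doublets (2 per cell) led to the removal of 3.22% of SD+RS and 5.6% of SD cells, at thresholds that called 51.7% and 61.0% of simulated doublets. Cells were clustered (Leiden, leidenalg 0.10.2, resolution 1.0, neurons 1.5) on 2000 variable genes and 40 principal components, leaving out ribosomal protein, mitochondrial, activity, stress and sex genes. Thresholds for naming clusters from marker lists were set after the data were seen, so classes are rebuilt names. UMIs were summed per class and library. Shares have exact Clopper-Pearson intervals, CPM exact Poisson intervals and ratios (SD+RS over SD) exact conditional binomial intervals, all at 95% and for counting error only. Calls needed a 1.2-fold difference and at least 50 UMIs in both libraries; the calculations were tested on simulated data. Python 3.11.15, numpy 2.4.6 and scipy 1.17.1 were used.

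Members and gene lists were chosen with earlier results of these data known. The genes named were, per class, the members with the 3 highest and 3 lowest log2 ratios; those with the 6 largest and 4 smallest ranges over classes; a fixed set (Rpsa, the stalk genes, Rps6, Rpl36a and members with paralogs); genes outside the rule; and the 2 highest and 2 lowest of each translation list in neurons. Neuron clusters were named for the 3 highest and 3 lowest ratios and shares. Other named members, such as the further calls in precursors, Rpl41 and the Tac2, Amigo2 and Cbln2 cluster's leaders, were chosen after their values were seen. Results of some genes that these rules name are not reported here. Alternatives were other denominators, filters, depths, thresholds and cells of 1 sex. Start sequences are RefSeq, GRCm38.p6.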

Additional observations from a re-analysis of the deposited data

Results flagged for a closer look

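The ribosomal protein share, summed over the cells of a class, went opposite ways in 2 classes under the same contrast. In astrocytes the log2 ratio, SD+RS over SD, was −0.28, and in mural cells it was 0.088. With 1 library per group, the difference between these ratios was not tested. The mural value differed between its 2 clusters and between cells with Xist only and cells with Y-linked UMIs only, while all 4 astrocyte clusters were below 0. The mix of the 2 mural clusters also differed between the libraries. The cluster led by Acta2 held 78 SD+RS and 98 SD cells, and the cluster led by Vtn and Kcnj8 held 50 and 124. The part of this mix in the mural value was not tested.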

How the results depend on the processing

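No paired analysis was possible because each group is 1 library, and no replicate could be left out. Astrocytes stayed below 0 under all 11 alternatives, oligodendrocytes under 11 of 11 and precursors under 9 of 9. Microglia were above 0 in 9 of 10, mural cells in 9 of 10, and endothelial cells below 0 in 9 of 11. Neurons were above 0 in 4 and below in 7, always within 0.025 of it. Where a value moved, the cause was not tested. Without mitochondrial UMIs the log2 ratio was 0.012 in microglia, −0.0084 in neurons, −0.066 in oligodendrocytes and −0.30 in astrocytes. As a mean over cells it was −0.0060 in endothelial cells, 0.0018 in neurons and −0.30 in astrocytes. Thinned to 2000 UMIs a cell it was 0.022 in microglia and −0.023 in endothelial cells. Under the stricter cell filter (1000 genes, 10% mitochondrial) it was 0.0056 in microglia, −0.0053 in neurons and −0.27 in astrocytes. With doublets kept it was 0.085 in microglia and 0.0072 in endothelial cells. In cells with Xist only it was −0.044 in microglia, 0.0017 in endothelial cells, −0.0048 in neurons, 0.15 in mural cells, −0.035 in oligodendrocytes, −0.15 in precursors and −0.26 in astrocytes. Among Y-only cells the ratio was 0.086 in microglia, −0.11 in endothelial cells, 0.024 in neurons, −0.18 in mural cells, −0.097 in oligodendrocytes and −0.037 in precursors. Without the 5 most abundant members it was −0.0070 in neurons and −0.11 in precursors. Some alternatives were chosen after seeing the data. Among them, cells with no neuron marker gave 0.0083 in microglia, −0.092 in endothelial cells and −0.048 in oligodendrocytes; precursors had too few such cells. Adding shallow cells gave 0.025 in neurons, and adding unnamed clusters gave −0.088 in endothelial cells, 0.00032 in neurons and −0.080 in oligodendrocytes.

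Member counts moved as well. Past 1.5-fold, 0 members were called in each class except astrocytes, with 1 lower. With at least 500 UMIs, microglia had 0 higher and 1 lower, endothelial cells 1 lower, oligodendrocytes 1 lower and precursors 0 lower. With at least 10 UMIs, neurons had 2 lower. As a share of ribosomal protein UMIs, mural cells had 0 higher and 6 lower, oligodendrocytes 1 lower, precursors 3 lower and astrocytes 1 lower. In cells with Xist only, microglia had 0 higher and 6 lower, endothelial cells 1 higher and mural cells 17 higher. Oligodendrocytes with Xist only had 4 lower, and precursors 1 higher and 22 lower. The shares of all genes in the same cells are given with each class above. Depth limits single members most in mural cells and precursors, whose intervals are widest.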
